A study of Homo sapiens with 36 samples.

Results

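The Ras GTPase genes HRAS and NRAS and the Raf kinase gene BRAF were examined for binding of the transcription machinery and of AP-1 in lung cancer cells and in non-cancerous bronchial cells. They are 3 of 20033 protein-coding genes of GENCODE release 44 and were chosen for their place in the Ras-MAPK pathway, not for a measured value. Earlier results of these data were known when the genes were chosen. Peaks were collected within 3 kb of any annotated start site of the 3 genes, across their gene bodies and, for the Jun-family proteins, within 100 kb of the gene bodies. Chromatin immunoprecipitation followed by sequencing (ChIP-seq) had been performed in 2 cell lines, A549 from a human lung adenocarcinoma and BEAS-2B, called B2B here, from bronchial epithelium that is non-cancerous and was immortalised with viral oncoproteins. No drug treatment is given in the labels of these samples, both lines were grown in the same medium, and each condition is a single cell line. The 16 peak lists covered 7 targets in both lines, namely RNA polymerase II (pol II), H3K4me3, Med1, H3K27ac, JunB, Jun and JunD, and 2 further targets, CTCF and Rad21, in B2B only. Each list had been called on a pool of replicates, so that no value has a replicate error and no difference between the lines could be tested. The number of reads per library was not stated, and the median summit of a list held from 19 (Med1, both lines) to 107 reads (B2B H3K4me3).

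Ras proteins are membrane-bound switches that carry signals from receptors at the cell surface when GTP is bound. Active Ras recruits Raf kinases, which phosphorylate MEK, and MEK phosphorylates ERK. ERK and related kinases raise the amount and activity of AP-1, a dimer of Jun and Fos family proteins that binds the DNA motif TGACTCA or TGAGTCA. Some Jun-containing dimers, with partners of the ATF family, bind the cAMP response element (CRE), TGACGTCA. Pol II and H3K4me3 mark promoters, Med1 is a subunit of the Mediator complex, H3K27ac marks active promoters and enhancers, and CTCF and the cohesin subunit Rad21 mark insulators and loop anchors.

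HRAS (ENSG00000174775.18) lies on the minus strand at chr11:532242-537321 (hg38), spans 5.1 kb and has 9 annotated start sites. NRAS (ENSG00000213281.5) lies on the minus strand at chr1:114704469-114716771, spans 12.3 kb and has 1 start site. BRAF (ENSG00000157764.14) lies on the minus strand at chr7:140719327-140924929, spans 205.6 kb and has 19 start sites. Distances are given from the start of the canonical transcript. The start of LRRC56, on the opposite strand, lies 206 bp from an HRAS start site. Where a start-site window also holds the start of another gene, its peaks cannot be assigned to the member alone.

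The sequences just upstream of the canonical starts are shown because the pol II, Med1 and Jun-family summits described next fell on or beside them. They were read from hg38 on the minus strand, 5′ to 3′, each ending at the base before the start site. The NRAS sequence is the shortest and covers fewer bases upstream. Capitals mark GC boxes (GGGCGG or CCGCCC) and a CCAAT box in HRAS, GC boxes in NRAS, and the CRE and its half-sites (TGACG or CGTCA) in BRAF. A GC box in BRAF is left in lower case.
HRAS, chr11:535577-535826: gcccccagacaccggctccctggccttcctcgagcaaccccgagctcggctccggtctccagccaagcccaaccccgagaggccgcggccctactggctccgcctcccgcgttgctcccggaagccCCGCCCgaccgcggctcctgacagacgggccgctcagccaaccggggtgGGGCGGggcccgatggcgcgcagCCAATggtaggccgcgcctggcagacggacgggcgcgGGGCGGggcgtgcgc
NRAS, chr1:114716772-114716912: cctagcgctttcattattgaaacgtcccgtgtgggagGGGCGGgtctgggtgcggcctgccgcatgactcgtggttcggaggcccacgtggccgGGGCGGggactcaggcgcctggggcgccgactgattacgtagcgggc
BRAF, chr7:140924930-140925179: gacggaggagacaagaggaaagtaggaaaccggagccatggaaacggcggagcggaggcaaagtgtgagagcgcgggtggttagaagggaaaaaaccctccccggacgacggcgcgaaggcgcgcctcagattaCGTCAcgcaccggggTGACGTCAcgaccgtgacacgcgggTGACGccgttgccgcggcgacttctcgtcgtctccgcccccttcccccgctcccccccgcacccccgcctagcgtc

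The promoters differed in these letters. The 250 bases upstream of BRAF held 1 CRE, 94 to 101 bp before the start, and 3 separate CRE half-sites, where the CRE, made of overlapping half-sites, was counted as 1 of the 3. A CRE was present in 1.6% of 35116 RefSeq promoters of the same length (GRCh38.p14), and 3 or more half-sites in 0.6%, with both strands searched. BRAF also held 1 GC box, 38 to 43 bp before the start, and at least 1 was present in 42.6% of these promoters. HRAS held 3 GC boxes and 1 CCAAT box but neither a CRE half-site nor an AP-1 motif. At least 3 GC boxes were present in 12.8% of the promoters and a CCAAT box in 32.0%. The 141 bases upstream of NRAS held 2 GC boxes and no AP-1 motif or CRE half-site. At least 2 GC boxes were present in 16.6% of promoters over that length. None of the 3 sequences held the AP-1 motif, which was present in 4.2% of the promoters over 250 bases. GC content was 77.2% in HRAS and 67.2% in BRAF against a median of 58.0%, and 68.8% in NRAS against 59.6% over its shorter window.

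**Figure D1:**
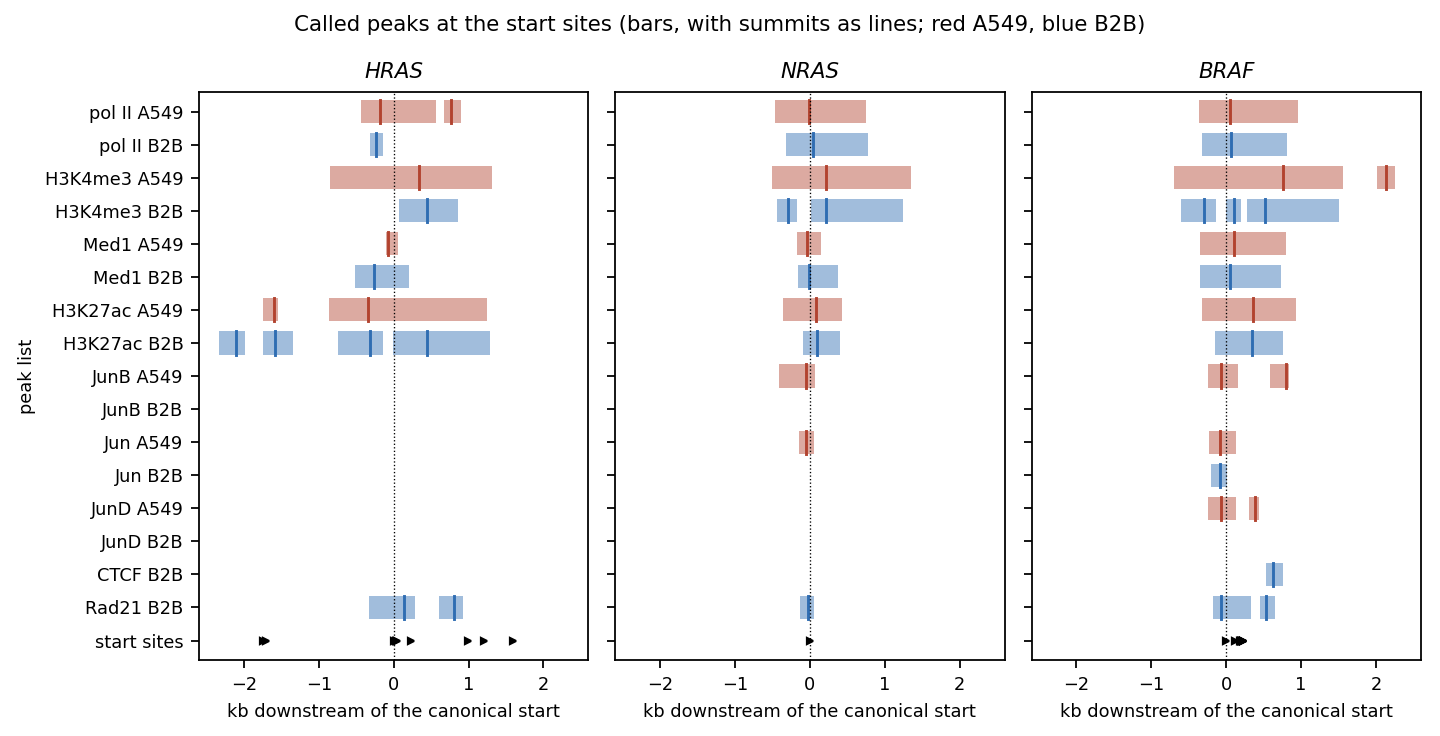
Called peaks of the 16 lists within 2.6 kb of the canonical starts of HRAS, NRAS and BRAF, plotted by distance downstream of the start in kb, with bars for peaks, lines for summits and arrowheads for annotated start sites. Pol II, H3K4me3, Med1 and H3K27ac peaks stand at all 3 genes in both lines, Jun-family peaks stand at NRAS in A549 and at BRAF in both lines, and none stands at HRAS.

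To ask whether the start sites were occupied in both lines, the calls within 3 kb were counted for the 7 targets measured in both. Of 21 pairs of gene and target, 17 had a peak in A549 and 13 in B2B. Over all protein-coding genes, each target but Med1 was also called at a larger share in A549. The shares in A549 and B2B were 69.6% and 52.0% for pol II and 73.7% and 62.7% for H3K4me3. They were 54.6% and 61.0% for Med1 and 73.5% and 64.3% for H3K27ac. For JunB, Jun and JunD they were 31.1% and 5.28%, 38.2% and 25.4%, and 17.8% and 3.21%. Pol II, H3K4me3, Med1 and H3K27ac had a peak at each of the 3 genes in both lines. Such peaks in both lines were present at 50.1% of protein-coding genes for pol II, 60.8% for H3K4me3, 50.8% for Med1 and 62.3% for H3K27ac. The 4 pairs called in A549 and not in B2B were JunB and Jun at NRAS and JunB and JunD at BRAF. No pair was called in B2B and not in A549. Such calls were rare over all protein-coding genes as well. Their share was 1.84% for pol II, 1.87% for H3K4me3, 10.3% for Med1 and 2.02% for H3K27ac. For JunB, Jun and JunD it was 0.953%, 6.5% and 1.57%.

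The strength of a peak is given as its fold enrichment, the pileup of reads at the summit over the local background, and as the percentile of that value within its own list, because lists of different depth are not on 1 scale. BRAF had the highest percentiles of the 3 genes in A549 for H3K27ac, pol II and Med1. Its strongest peak stood at percentile 98.3 for H3K27ac (114-fold), 95.7 for H3K4me3 (45.8-fold), 95.6 for pol II (74.4-fold) and 89.4 for Med1 (14.7-fold). In B2B the same 4 targets stood at percentile 63.5, 55.0, 33.8 and 80.2. Ranked by reads at the summit, H3K27ac at BRAF stood at percentile 99.2 in A549 and 98.4 in B2B, and pol II at 91.5 and 88.1. NRAS ranked high in both lines. Its pol II peak was at percentile 91.3 in A549 (57.4-fold) and 82.2 in B2B (8.05-fold). Its H3K4me3 peak was at percentile 96.9 and 97.7, and its Med1 peak at 83.2 and 87.1. H3K27ac was the exception at NRAS, with percentile 71.3 in A549 and 35.2 in B2B. HRAS had the lowest percentiles of the 3 genes for pol II and Med1 in both lines. Its pol II peak was at percentile 67.9 in A549 and 4.5 in B2B by fold enrichment, at 73.5 and 38.5 by −log10 p, and at 76.7 and 70.0 by reads. Its Med1 peak was at 6.0 and 17.0 by fold enrichment. Its H3K4me3 peak was at 81.9 and 18.7 by fold enrichment and at 90 and 85.7 by reads. Of the 13 pairs called in B2B, 7 were above the median of their list by fold enrichment and 11 by −log10 p. Because the lists differ in length and background, a difference in percentile is not read as a change between the lines.

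**Figure D2:**
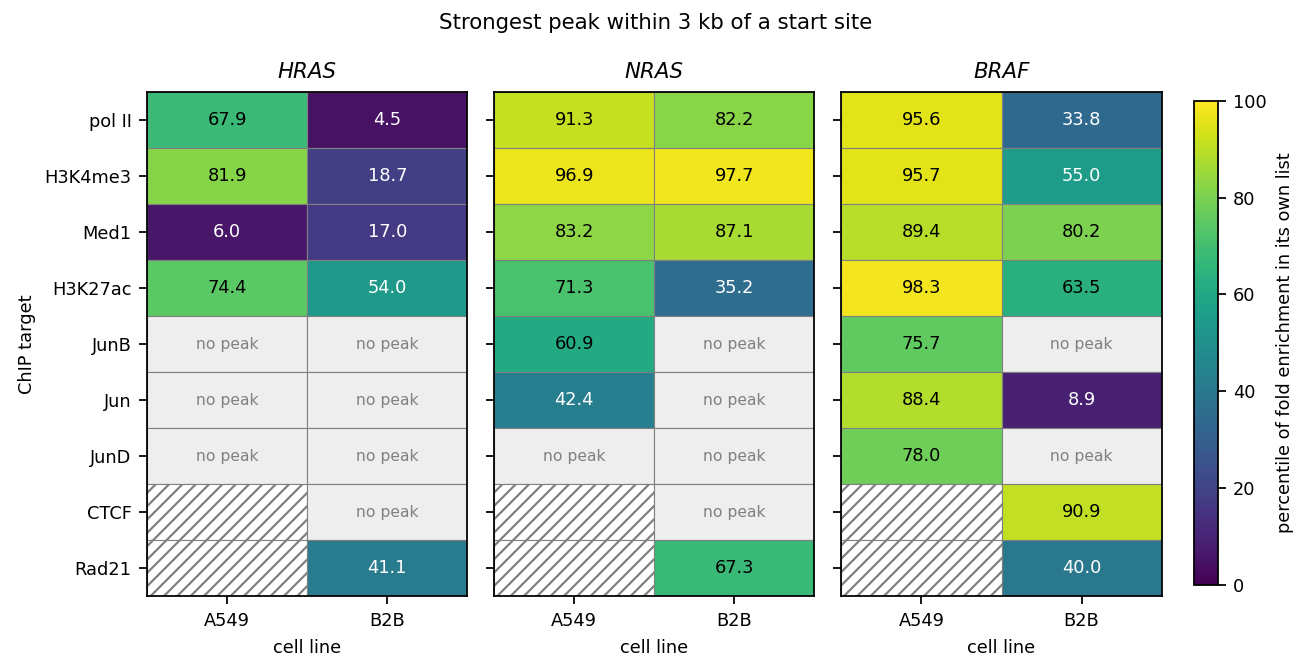
Percentile, within its own list, of the fold enrichment of the strongest peak within 3 kb of a start site, for each ChIP target (rows) and cell line (columns), with grey cells for no peak and hatched cells for targets not analysed here in A549. NRAS holds high percentiles for pol II, H3K4me3 and Med1 in both lines, whereas by fold enrichment those of pol II and H3K4me3 at HRAS and BRAF are lower in B2B. By reads, pol II at HRAS stands at 76.7 in A549 and 70.0 in B2B.

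The reads at the summits differed less between the lines than the background did. Pileup and background, solved from the deposited fold enrichment and p-value, gave 216 pol II reads at the BRAF summit in A549 (95% Poisson interval 188 to 247) and 175 in B2B (150.0 to 203). The A549 to B2B ratio was 1.23 (1.01 to 1.51, exact binomial, counting error only), without a correction for depth. The median pol II ratio over protein-coding genes, given below, was higher at 1.43. The local background was 1.92 reads in A549 and 43.1 reads in B2B. H3K27ac at BRAF had 335 reads in A549 and 317 in B2B, at a ratio of 1.06 (0.904 to 1.24), over a background of 1.94 and 48.4 reads. So the counts at these BRAF summits were close between the lines while the backgrounds were not.

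The same held at the Ras genes. HRAS had 87 pol II reads in A549 and 108 in B2B, at a ratio of 0.806 (0.60 to 1.08), over backgrounds of 5.67 and 46.6 reads. HRAS also had 189 and 156 H3K4me3 reads, a ratio of 1.21 (0.975 to 1.51), over backgrounds of 4.23 and 67.5 reads. NRAS had 161 H3K4me3 reads in each line, a ratio of 1.00 (0.799 to 1.25), and 192 and 157 pol II reads, a ratio of 1.22 (0.985 to 1.52). At NRAS the B2B backgrounds were lower than at the other members, 18.6 reads for pol II and 11.3 for H3K4me3. Across the called pairs other than Med1, background lay between 1.18 and 5.67 reads in A549 and between 11.3 and 67.5 reads in B2B, and the ranges did not overlap. Over all protein-coding genes of chromosomes 1 to 12 with a peak, the median background was 2.36 reads in A549 and 25.5 in B2B for pol II, 3.37 and 28.0 for H3K4me3, and 2.26 and 26.7 for H3K27ac. It was 2.02 and 2.18 reads for Med1, 1.51 and 2.47 for Jun, and 2.63 and 2.58 for JunD, so that the wide difference was not shared by each target. The part of this background in the calls and percentiles was not tested.

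Over all protein-coding genes of chromosomes 1 to 12 with a peak in both lines, the median A549 to B2B ratio of reads was 1.43 for pol II, 1.28 for H3K4me3, 1.17 for H3K27ac and 0.982 for Med1. HRAS stood at percentile 7.5 of these ratios for pol II, against 34.0 for NRAS and 35 for BRAF. For Med1, with few reads at each gene, BRAF had 40 reads in A549 and 27 in B2B, at a ratio of 1.48 (0.887 to 2.51). The Ras genes had fewer Med1 reads in A549 than in B2B, 18 against 25 at HRAS and 29 against 41 at NRAS, and both intervals included 1. At BRAF the H3K4me3 ratio depended on the peak chosen. The peak with the highest fold enrichment had 176 reads in A549 and 99 in B2B, at a ratio of 1.78 (1.38 to 2.30), but the highest pileup at this gene in B2B was 157 reads in another peak, which gave a ratio of 1.12.

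**Figure D3:**
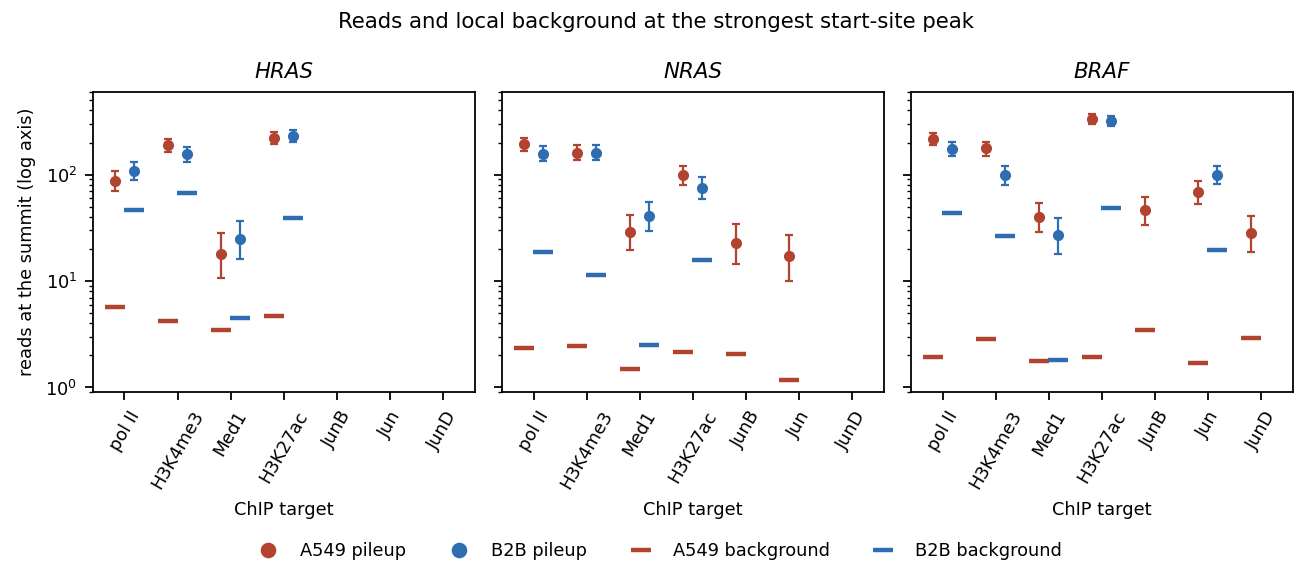
Reads at the summit of the strongest start-site peak (points, with 95% Poisson intervals) and local background (dashes) for the 7 targets measured in both lines, on a log axis. Points of A549 and B2B lie close together for pol II, H3K4me3 and H3K27ac except H3K4me3 at BRAF (176 and 99 reads), while the B2B background dashes lie between 11.3 and 67.5 reads for these targets and the A549 dashes at or below 5.67 reads.

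The width of the called peaks also differed. H3K4me3 peaks near HRAS covered 2161 bp in A549 and 795 bp in B2B, and pol II peaks covered 1241 and 173 bp. The backgrounds at the strongest of these peaks were 4.23 and 67.55 reads for H3K4me3 and 5.67 and 46.57 for pol II. The part of background in the widths was not tested, and widths over all genes were not computed. Other peaks were wider in B2B. Med1 covered 155 bp in A549 and 726 bp in B2B at HRAS, and 315 and 525 bp at NRAS. H3K27ac at HRAS covered 2305 and 2647 bp. At NRAS, 1 H3K4me3 peak of 1856 bp in A549 stood opposite 2 peaks of 1502 bp in all in B2B, which flanked the start site. At BRAF, H3K4me3 covered 2506 bp in 2 peaks in A549 and 1900 bp in 3 peaks in B2B.

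The 3 genes differed in Jun-family binding at their start sites. HRAS had no JunB, Jun or JunD peak in either line, which was the case for 50.6% of protein-coding genes. NRAS had JunB and Jun in A549, no JunD, and none of the 3 proteins in B2B, a pattern shared with 6.03% of protein-coding genes. BRAF had all 3 in A549 and Jun alone in B2B, a pattern shared with 5.27%, and Jun in both lines was called at 18.9%. For single proteins, a peak in A549 and none in B2B was present at 26.7% of protein-coding genes for JunB, 19.3% for Jun and 16.2% for JunD. A gene without a peak was not called at the depth of its list, which does not show that the protein was absent.

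At BRAF, the summits of the 4 Jun-family peaks nearest the start fell within 14 bp of each other, 72 to 86 bp upstream. The A549 summits of JunD, JunB and Jun lay 72, 75 and 82 bp upstream, and the B2B summit of Jun lay 86 bp upstream. All 4 were 8 to 22 bp from the CRE printed in capitals in the BRAF sequence and 0 to 8 bp from the nearest half-site. In A549, 68 Jun reads (52.8 to 86.2), 46 JunB reads (33.7 to 61.4) and 28 JunD reads (18.6 to 40.5) were at the summits. These peaks ranked in the upper part of their lists, at percentile 88.4 for Jun (25.8-fold), 78.0 for JunD (7.35-fold) and 75.7 for JunB (10.5-fold). The B2B Jun peak had more reads, 100 (81.4 to 122), at an A549 to B2B ratio of 0.68 (0.492 to 0.935), but only 4.88-fold enrichment. Its background was 19.7 reads against 1.68 in A549, and above the 90th percentile of 10.3 reads over protein-coding genes of chromosomes 1 to 12 with a B2B Jun peak. By fold enrichment the B2B Jun peak therefore stood at percentile 8.9 of its list, by −log10 p at 72.6 and by reads at 95.1. Over 2529 protein-coding genes of chromosomes 1 to 12 with Jun in both lines, the median ratio of Jun reads was 0.796, and BRAF stood at percentile 40.2. Rad21 in B2B had a summit at the same place, 69 bp upstream, with 73 reads. A second and weaker peak of JunB (12 reads) and of JunD (14 reads) lay in an intron of BRAF in A549, less than 1 kb downstream of the start.

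At NRAS, the A549 summits of JunB and Jun lay 54 and 57 bp upstream of the start, between the GC boxes printed in capitals. JunB had 23 reads (14.6 to 34.5) and 7.87-fold enrichment at percentile 60.9, and Jun had 17 reads (9.9 to 27.2) and 8.25-fold enrichment at percentile 42.4. Both had fewer reads than at BRAF. Med1 summits were 33 bp upstream in A549 and 15 bp upstream in B2B, and the Rad21 summit in B2B was 23 bp upstream with 66 reads. Lists of chromosomes 1 to 12 were also cut to equal length. The A549 JunB list fell from 19926 to 6318 peaks, and the JunB call at NRAS was lost while that at BRAF remained. JunD at BRAF remained called, but its A549 list was cut only from 6438 to 6206 peaks. The A549 Jun list was the shorter of its pair and was not cut, so Jun at NRAS could not be lost.

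In B2B, Rad21 was called at the start sites of all 3 members, as at 67.9% of protein-coding genes, and CTCF at BRAF only, against 50.1% of protein-coding genes. HRAS had 2 Rad21 peaks with up to 109 reads and no CTCF peak. BRAF had a strong CTCF peak inside the gene at chr7:140811150-140811443, in an intron and 113651 bp downstream of the canonical start. It had 108 reads and 31.2-fold enrichment, percentile 90.9 of the CTCF list, and its summit was 2940 bp from an internal annotated start. Rad21 had a weak peak there, with 11 reads. A weaker CTCF peak, with 95 reads over a background of 21.3 and 4.30-fold enrichment, lay 628 bp downstream of the canonical start.

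Gene bodies added few peaks. For the 7 targets, 23 peaks overlapped the 3 gene bodies in A549 and 17 in B2B, or 18 and 17 with lists of equal length. The same counts over all protein-coding genes were not computed, so 23 against 17 is not read as a trait of these genes. In the full lists, all but 1 in each line were within 3 kb of a start site. The exception in A549 was a pol II peak of 10 reads in the 3′ UTR of NRAS, 11126 bp downstream of its start. The exception in B2B was a Jun peak in an intron of BRAF at chr7:140876761-140877028, 48.0 kb downstream of the canonical start, with 21 reads and 9.72-fold enrichment at percentile 56.8. CTCF had a further peak of 25 reads outside these windows, at chr7:140726426-140726619 near the 3′ end of BRAF. Peaks covered 45.4% of the HRAS body for H3K27ac in A549 and 45.1% in B2B, but only 0.456% and 0.372% of the much longer BRAF body.

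To look for distal AP-1 sites, Jun-family peaks from the gene bodies out to 100 kb on each side were merged over both lines, and a region with a peak of each line was called shared. There were 5 regions around HRAS, 3 around NRAS and 10 around BRAF. Of these, 3 were shared, 11 belonged to A549 alone and 4 to B2B alone. Genome-wide, 26.5% of 72011 such regions were shared, 34.1% belonged to A549 and 39.4% to B2B. The same windows around all protein-coding genes held a median of 3 regions of A549 alone and 2 of B2B alone. HRAS, NRAS and BRAF had 4, 2 and 5 of A549 alone, at percentiles 59.8, 30.0 and 71.1. Of B2B alone they had 0, 1 and 3, at percentiles 0.0, 23.5 and 59.8. The median protein-coding gene had 29.8 regions per Mb in its window. HRAS had 24.4, NRAS 14.1 and BRAF 24.7, which were at percentiles 39.4, 19.9 and 40.3, all below the median.

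**Figure D4:**
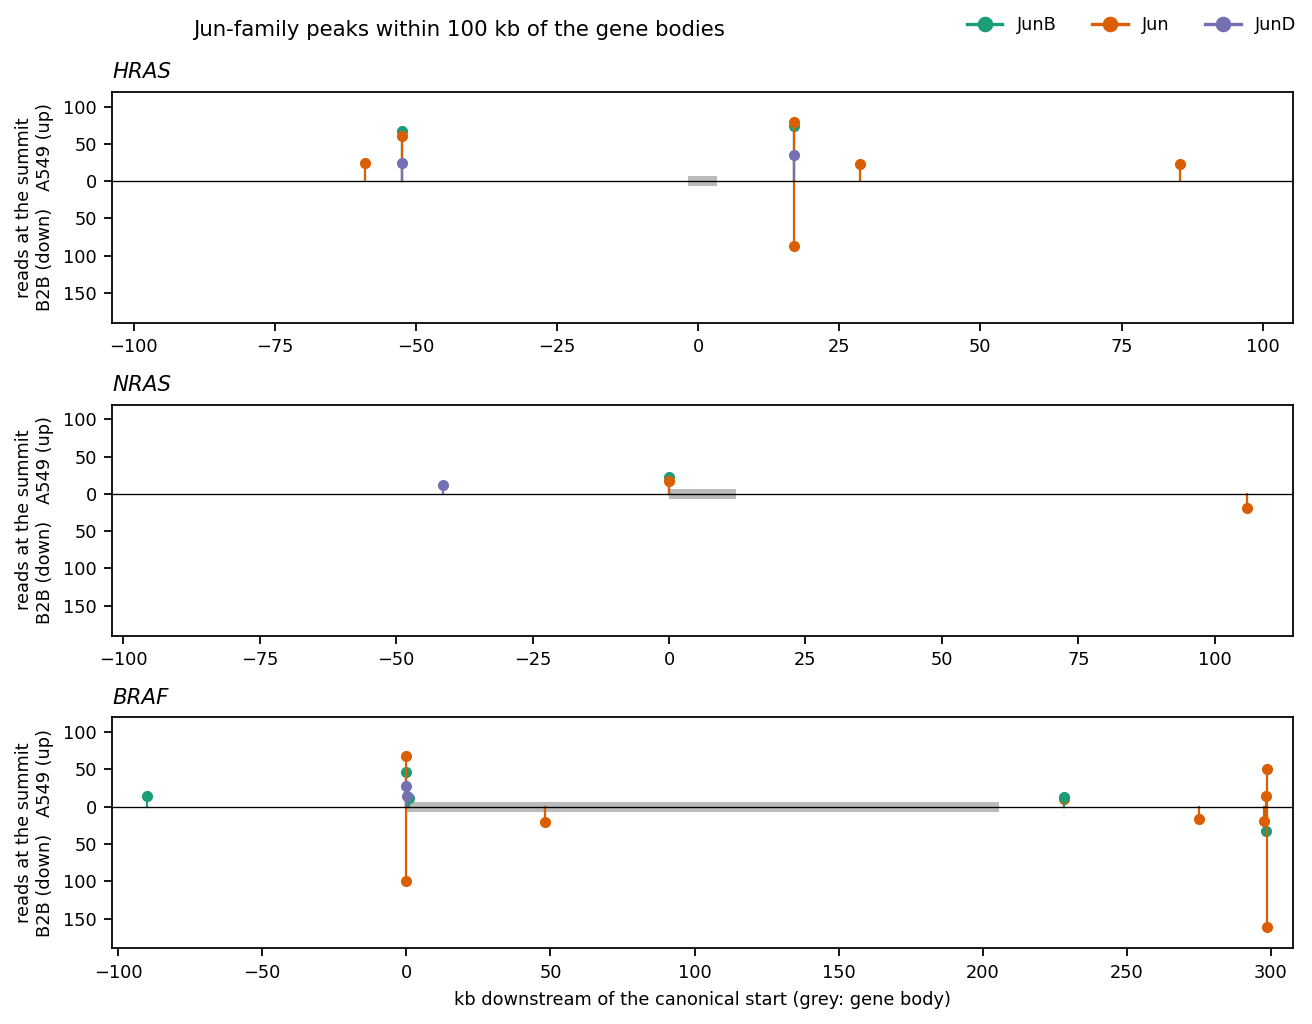
Jun-family peaks within 100 kb of the gene bodies (grey), plotted by the distance of their summit from the canonical start in kb and by reads at the summit, upward for A549 and downward for B2B. Peaks of both lines coincide 16.9 kb downstream of the HRAS start, at the BRAF start and in DENND2A, and no peak stands at the HRAS start itself.

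Around HRAS the 2 strongest regions carried all 3 Jun-family proteins in A549. The first, at chr11:518436-518904 between genes and 13.3 kb past the 3′ end of HRAS, was shared. It had 80 Jun, 74 JunB and 35 JunD reads in A549 and 87 Jun reads in B2B. As at the BRAF promoter, Jun had no fewer reads in B2B than in A549, but it had 18.6-fold enrichment in A549 and 4.92-fold in B2B, over backgrounds of 3.35 and 16.9 reads. This region also had pol II, H3K4me3, Med1 and H3K27ac in A549 and Med1, H3K27ac, CTCF and Rad21 in B2B. The other, at chr11:587879-588297, lay in an intron of PHRF1, which encodes a PHD and RING finger protein, 50.6 kb upstream of HRAS. It was called in A549 only, with 67 JunB, 60 Jun and 24 JunD reads. Pol II, Med1 and H3K27ac were called there in A549 and no target in B2B. The remaining regions around HRAS were weaker Jun peaks of A549, with 23 reads at PTDSS2, 23 at RNH1 and 24 in PHRF1. Those at PTDSS2, which encodes a phosphatidylserine synthase, and at RNH1, the ribonuclease inhibitor, lay at the start sites of these genes.

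Around NRAS, besides its own promoter, there was a Jun peak of 19 reads in B2B in an intron of DENND2C, 93.6 kb past the 3′ end. Neither line had all 3 proteins at a region in this window. Around BRAF the strongest region was chr7:140626028-140626999, in an intron of DENND2A, a Rab exchange factor, 92.3 kb past the 3′ end of BRAF. It was shared, with 161 Jun reads in B2B (36.2-fold, percentile 96.4) and 51 in A549 (21.3-fold, percentile 83.8). JunB was called there in B2B only, with 33 reads, and pol II, Med1, H3K27ac, CTCF and Rad21 were called there in B2B but not in A549, where CTCF and Rad21 were not analysed. Pol II, Med1 and H3K27ac were thus called in A549 alone at the PHRF1 region and in B2B alone at the DENND2A region. Weaker regions lay in DENND2A (2, B2B), at the start of NDUFB2, which encodes a subunit of respiratory complex I (2, A549), and at the start of MRPS33, which encodes a protein of the mitochondrial ribosome (1, A549). Regions of A549 alone numbered 4 in place of 11 when those within 3 kb of a start of another protein-coding gene were left out, and 6 at a −log10 q of 5 or more. Regions of B2B alone numbered 4 in both cases. The region at the NRAS promoter was among those left out, since it lies within 3 kb of another coding start.

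The sequences at 3 of these summits are shown because they differ in the AP-1 motif, which is in capitals where present. Each runs 50 bp to either side of the summit of Jun on the plus strand of hg38.
PHRF1 intron (A549 summit), chr11:588007-588107: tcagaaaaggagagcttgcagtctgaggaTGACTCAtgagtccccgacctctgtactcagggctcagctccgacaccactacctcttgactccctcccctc
BRAF intron (B2B summit), chr7:140876834-140876934: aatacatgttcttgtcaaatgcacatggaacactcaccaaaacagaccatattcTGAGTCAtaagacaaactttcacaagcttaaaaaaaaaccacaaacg
DENND2A intron (B2B summit), chr7:140626369-140626469: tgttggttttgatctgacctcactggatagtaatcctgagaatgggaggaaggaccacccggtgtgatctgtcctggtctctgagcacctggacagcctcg

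The PHRF1 and BRAF intron summits held the motif once each, and the DENND2A summit, with the most reads, held none. Whether reads of the regions around the members map uniquely was not tested. Of the 30 Jun-family peaks around the 3 genes, 9 had TGACTCA or TGAGTCA within 50 bp of the summit on either strand, a share of 30.0% (Wilson 95% interval 16.7 to 47.9). Over the whole lists the share was 42.4%, and 1.6% in windows 2 kb away from the summits. The members' peaks share regions and are not independent, and the list share lay within the interval. The motif present differed with the position of the peak. None of the 14 peaks within 3 kb of a coding start held the AP-1 motif and 5 held the CRE, namely the 4 at the BRAF promoter and 1 at NDUFB2. Of the 16 peaks farther away, 9 held the AP-1 motif and none the CRE. In the whole lists, the AP-1 motif was present at 33.7% of peaks near coding starts and 44.9% of those farther away, and the CRE at 3.49% and 0.57%.

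To place the members in their pathway, start-site peaks were counted for 24 other genes of the Ras-MAPK pathway. As over all protein-coding genes, JunB and JunD were called at more of these genes in A549 than in B2B. JunB was called at 13 of 24 genes in A549 and 2 in B2B, against 31.1% and 5.28% of all protein-coding genes. JunD was called at 8 genes in A549 and 2 in B2B, against 17.8% and 3.21%. Jun was called at 15 genes in A549 and 14 in B2B, against 38.2% and 25.4%. The JunB count depended on list length, and was 4 in A549 against 2 in B2B with lists of equal length. Among the 4 Ras relatives RRAS, RRAS2, MRAS and RIT1, 3 had Jun and 2 had JunB in A549. The GTPase-activating proteins NF1, RASA1 and RASAL2, which switch Ras off, had JunB at all 3 genes in A549 and at none in B2B, Jun at 2 and 3 genes, and JunD at 2 and 1. Of the 24 genes, only MAP2K1, the MEK kinase that Raf phosphorylates, had all 3 Jun-family proteins in A549 and none in B2B, with 32 Jun, 25 JunB and 22 JunD reads. That pattern was present at 5.79% of protein-coding genes.

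**Figure D5:**
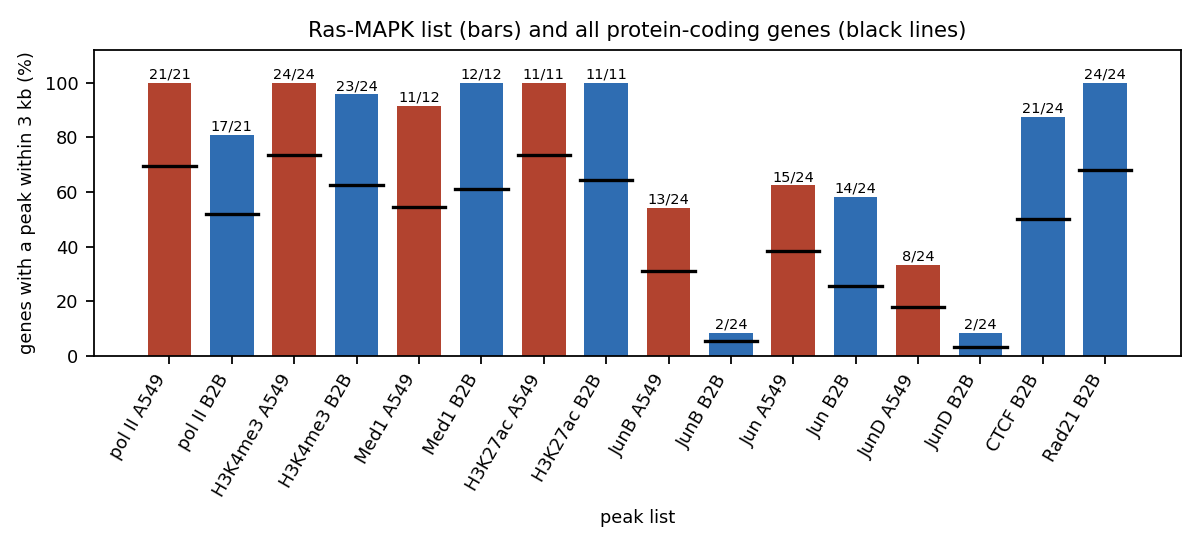
Percentage of the Ras-MAPK list with a peak within 3 kb of a start site in each list (bars, red for A549 and blue for B2B, with counts above), beside the percentage of all protein-coding genes (black lines). The bars stand above the lines in each list, with JunB at 13 of 24 genes in A549 and 2 of 24 in B2B.

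H3K4me3 was called at 24 of 24 of these genes in A549 and 23 in B2B, against 73.7% and 62.7% of all protein-coding genes, and Rad21 at all 24 in B2B. Of the 21 genes on the chromosomes that both pol II lists cover, pol II was called at 21 in A549 and 17 in B2B, against 69.6% and 52.0%. Nearly all genes of the list were thus marked at their start sites, as the members were.

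The members were not alike in their whole pattern over the 16 lists. The Euclidean distance between the within-list percentiles of their strongest start-site peaks was 153 between NRAS and BRAF, 175 between HRAS and NRAS and 207 between HRAS and BRAF. Among 12573 protein-coding genes of chromosomes 1 to 12, the genes nearest to HRAS were ZNF316, ZMYND19 and PGGHG, at distances of 18.3, 19.7 and 25.1, against a median of 149 over all genes. Those nearest to NRAS were TAF13, a subunit of the general transcription factor TFIID, THAP1 and PEX3, a peroxisome assembly protein, at 42.7, 51.7 and 60.1 against a median of 171. Those nearest to BRAF were ADGRV1, GNPDA1 and CAST, which encodes the calpain inhibitor calpastatin, at 38.9, 43.0 and 43.9 against a median of 192. A gene without a peak in a list was set to percentile 0 there. HRAS had no peak in any Jun-family list, as was the case for 50.6% of all protein-coding genes. The distances around the 3 members are therefore not compared with each other. The distance describes these 16 lists only.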

How the data were processed

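ChIP-seq had been performed in A549 and B2B cells, with 36 samples in 18 groups of 2 replicates per the labels. Per the methods and processing notes of the study, the authors aligned reads to hg38 with Bowtie2 2.4.4, removed duplicates, merged replicates, scaled the merged reads by CPM (SAMtools 1.13) and ran MACS2 2.2.7.1 as the peak caller. The control given to the caller was not stated. The authors deposited narrowPeak lists that give for each peak a score (a rescaled −log10 q), a ratio (fold enrichment of pileup over local background), −log10 of the p-value and q-value, and the summit offset. The lowest −log10 q was just above 2.

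Start sites were taken from GENCODE 44. Fold enrichment was ranked within each list, and values of the lines are set side by side without a test. Pileup and background in reads were solved from fold enrichment, read as (pileup + 1)/(background + 1), and a Poisson p-value, and 100% of peaks were solved. On simulated data 500 of 500 pileups were recovered within 1 read, and 4 of 4 sets of start-site calls equalled those of bedtools 2.31.1. The simulated pileups were built with the same formulas, so their recovery checks the solving step only, not whether the caller used these formulas. Intervals are Poisson, exact binomial or Wilson 95% intervals computed with SciPy 1.17.1 and cover counting error only. Those of pileups and their ratios treat the solved pileups as read counts and hold no correction for depth or for the CPM scaling. Because each list is 1 pool, no test was made, and shares over all protein-coding genes or regions are given beside start-site and region counts. No such share was computed for gene-body peaks.

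The A549 H3K27ac list ended on chromosome 13, both Med1 lists on chromosome 15 and the A549 pol II list on chromosome 20, and counts over all genes used the chromosomes that both lists cover. All 3 members lie on covered chromosomes. Values of a few genes and regions are not reported here, but they are included in the counts. Motifs were searched in hg38 within 50 bp of summits and in RefSeq promoters. Named were the members, their neighbours, the genes at described regions, pathway genes with all 3 Jun-family proteins in 1 line and none in the other, and the 3 genes nearest in pattern to each member. The members and lists were chosen with earlier results of these data known. Alternatives were a distance of 1 kb, canonical starts only, a −log10 q of at least 5, lists of equal length by −log10 p, covered bases, 50% reciprocal overlap, distances from the canonical start and a 100 bp motif window. Ranking by −log10 p, adding the CRE and leaving out regions at other starts were added after the data were seen.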

Additional observations from a re-analysis of the deposited data

How the results depend on the processing

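No paired analysis was possible because the replicates were merged before peaks were called, and for the same reason no replicate could be left out. Of 46 values recomputed for the main counts under an alternative, 39 stayed within 1.5 times the reported count or within its interval. Ranked by −log10 p in place of fold enrichment, 11 in place of 7 B2B start-site pairs were above the median of their list. With 50% reciprocal overlap, 1 region in place of 3 was shared, the one at the BRAF start, which follows from the stricter rule. Regions of A549 alone numbered 6 in place of 11 with a −log10 q minimum of 5 and 4 without regions at starts of other coding genes. The latter setting also leaves out the region at the NRAS promoter. Regions of B2B alone went from 4 to 1 when 100 kb was measured from the canonical start, which leaves out 2 regions past the 3′ end of BRAF and 1 past that of NRAS. In the pathway list, JunB in A549 went from 13 to 4 genes with lists of equal length, where the A549 list was the longer, and JunD in B2B from 2 to 1 at 1 kb. The causes of these changes were otherwise not tested. Of 47 further values for single genes or parts of these counts, 40 stayed within 1.5 times. The AP-1 share near the members was 33.3% with 100 bp windows and 46.7% with the CRE added. The A549 to B2B ratio of gene-body peaks lay between 1.06 and 1.35. It was lowest with lists of equal length, where the counts were 18 in A549 and 17 in B2B. Depth limits the values of summits with few reads, such as Med1 at the members with 18 to 41 reads.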
